A study of Homo sapiens with 6 samples.

Results

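Histone H4 acetylation (H4ac) was compared between one TIP60 knockdown, shTIP60-B, and its control hairpin over the H4ac peaks of the control library. The members were all control peaks that held at least 30 reads when the shTIP60-B and shControl libraries were added together. There were 33298 such peaks, of 36034 control peaks and of 63299 regions listed for this comparison. The libraries came from H1975, an established line of human non-small cell lung cancer. All cells carried a Tet-inducible hairpin and received 0.5 ug/ml doxycycline for 2 days, so the control cells shared the drug and the induction. The shControl cells expressed the control hairpin numbered 328 in the labels, and shTIP60-B and shTIP60-C are the study's first and second hairpins against TIP60. Each H4ac group was 1 library, and the labels do not say whether a line was 1 clone or a pool. No difference below therefore has a replicate check, no test was possible, and every interval is a 95% counting interval that covers counting error only.

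TIP60, encoded by KAT5, is the catalytic subunit of the NuA4 complex and transfers acetyl groups to lysines in the tail of histone H4, among other substrates. Acetylation loosens contacts between nucleosomes and is read by bromodomain proteins at active promoters and enhancers. Hairpins act on the transcript, so H4ac at the KAT5 promoter does not measure the knockdown.

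Among the promoters discussed below, 4 are shown because they hold short motifs of the pathways to which their genes belong. The interferon-stimulated response element, bound by a factor complex that contains IRF9, was searched as GAAANNGAA on both strands. The amino acid response element, bound by ATF4 dimers, was searched as TGATGNAA on both strands. The sequences come from RefSeq promoters on GRCh38.p14 and run 5′ to 3′ on the gene's strand, with the matched letters in capitals.
IFI27 (chr14:94110591-94110680, plus strand, bases -145 to -56 from the start): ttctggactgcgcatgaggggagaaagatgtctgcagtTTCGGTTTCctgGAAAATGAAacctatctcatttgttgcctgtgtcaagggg
IFI44L (chr1:78620325-78620414, plus strand, bases -123 to -34): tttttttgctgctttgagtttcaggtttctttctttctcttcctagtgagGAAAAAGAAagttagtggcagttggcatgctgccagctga
SAMD9 (chr7:93118076-93118165, minus strand, bases -186 to -97): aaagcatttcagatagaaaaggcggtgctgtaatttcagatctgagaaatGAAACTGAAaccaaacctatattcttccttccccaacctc
CHAC1 (chr15:40953221-40953310, plus strand, bases -250 to -161): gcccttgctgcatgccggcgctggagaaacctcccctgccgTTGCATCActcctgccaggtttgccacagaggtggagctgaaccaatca
IFI27 held 2 matches that do not overlap, both read here, and IFI44L held 2, of which 1 is shown. LOC105371335 and NBPF12, low promoters outside the interferon group, also held the interferon pattern. For the other called genes of the interferon and ATF4 lists no match was found or no RefSeq promoter was at hand. Over the 8411 genes whose RefSeq promoter was at hand, 6.73% held the interferon pattern in the 300 bases around the start and 1.61% held the amino acid pattern. Of the 18 matched promoters of ATF4 target genes, 4 held the amino acid pattern. Of the 30 matched promoters of interferon genes, 16 held the interferon pattern. But those 30 are under 80% of the 38 genes measured, so that comparison is void as a check of the whole list. The 8411 were 79.97% of 10518 genes, so the shares over all genes have the same limit, for the ATF4 count as well.

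Most H4ac peaks kept a ratio near that of the genome, and the peaks that differed were more often lower than higher. Members held 2825368 shTIP60-B reads and 3588211 control reads, with medians of 45 and 57 reads per peak. The log2 ratio was taken after adding 1 read to each count, and its median over members, -0.38, was subtracted, so all ratios are relative to the rest of the genome and a loss shared by all peaks was not measured. A peak was called where the ratio was at least 2-fold and its counting interval lay on one side of 0. By this rule 2442 peaks (7.33%) were lower and 1318 (3.96%) were higher. After the median of each peak's 10 Mb window had also been subtracted, 2014 of 33105 peaks (6.08%) were lower and 1090 (3.29%) were higher. Below, a genome-centred ratio is the former and a window-centred ratio the latter. The peak list weighs on this balance, because a peak called in the control alone tends to be low with the hairpin by construction. Among the 24552 members that overlapped an shTIP60-B peak, 1.31% were lower and 4.42% higher after window centring. Among the 8746 control-only members, 19.5% were lower and 0.127% higher.

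A smaller share of promoter peaks than of distal peaks was called in these libraries. Of the members within 1 kb of a start site, 3.20% were lower and 1.90% higher after window centring, against 7.67% and 4.06% of those farther away. Control-only peaks were 1673 of the 11789 promoter members and 7069 of the 21499 distal ones. Among members that overlapped an shTIP60-B peak, 1.06% of promoters and 1.48% of distal peaks were lower, and 2.22% and 5.96% were higher. Among control-only members 16.1% of promoters and 20.3% of distal peaks were lower. Promoter peaks are deeper, and the share of peaks called differed with depth. When members were split into 5 groups by depth, then in the deepest group 0.599% of promoters and 2.27% of distal peaks were lower, and 0.517% and 1.52% were higher. Members at exactly 30 reads, just inside the minimum, numbered 336 and had a median genome-centred ratio of -0.56. Those at 29 reads, just outside, numbered 346 with a median of -0.69.

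Counted by gene, with each gene represented by its promoter peak of most reads, 469 of 10565 genes (4.44%) were lower and 232 (2.2%) higher on the genome-centred scale. Window centring left 308 of 10518 genes (2.93%) lower and 177 (1.68%) higher. Of the 469 genes lower on the first scale, 207 were no longer called on the second, which is 44.1%, and 46 other genes were newly called. Of the 230 higher genes that had a window value, 93 lost the call, which is 40.4%, and 40 were newly called. Of the 207 lower genes that lost the call, 59 lay on chromosome 1, 45 on chromosome 20 and 37 on chromosome 16, and of the 93 higher genes 27 lay on chromosome 10 and 24 on chromosome 3.

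Whole chromosomes stood apart in the shTIP60-B library. The lowest median genome-centred ratios were on chromosome 20 (-0.55), chromosome 16 (-0.34) and chromosome 1 (-0.20), and the highest on chromosomes 10 (0.29), 3 (0.26) and 9 (0.23). Chromosome 20 had 58127 reads with shTIP60-B and 111372 with the control, and 83.8% of its 964 members lay below 0. Its distal peaks, with a median of -0.53, were shifted like its promoters. On chromosome 20, 53 of 294 genes were lower on the genome-centred scale and 8 after window centring. The same counts were 54 and 17 of 482 genes on chromosome 16, and 94 and 35 of 1011 on chromosome 1. At the same peaks with shTIP60-C, the median for chromosome 20 was 0.02. Input reads were not analysed here, so the number of DNA copies and the acetylation per copy cannot be told apart.

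**Figure D1:**
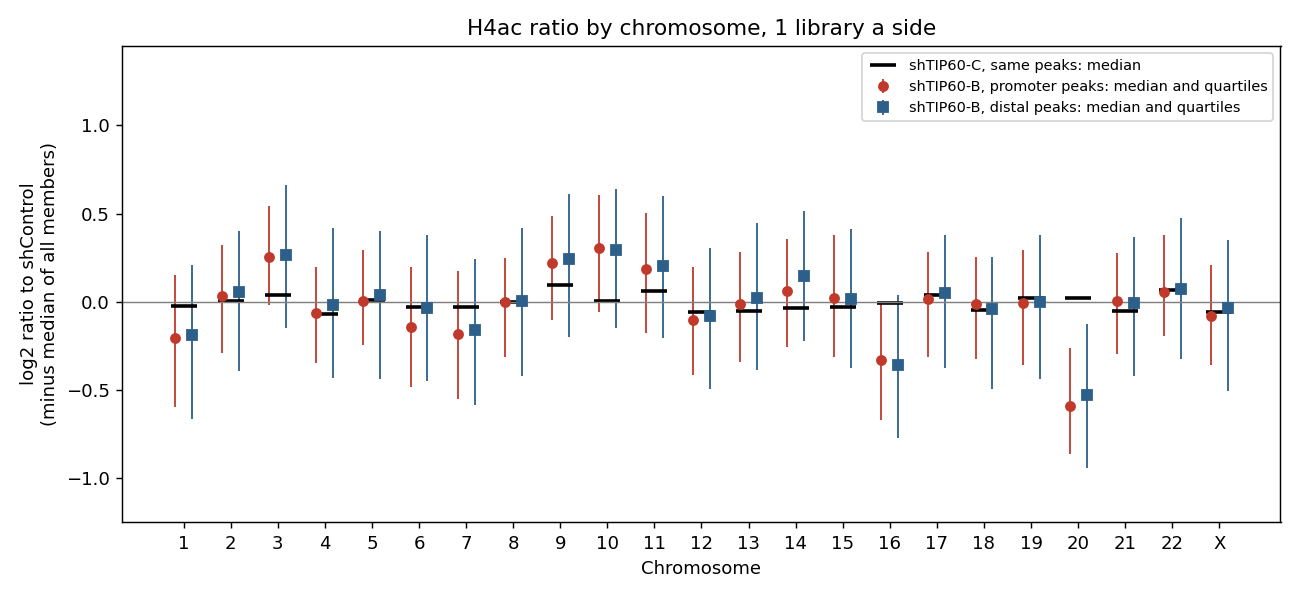
Genome-centred log2 ratio of H4ac on each chromosome for promoter peaks (circles) and distal peaks (squares) with shTIP60-B, as medians with quartiles, and the shTIP60-C median at the same peaks (black bars). Promoter and distal peaks of chromosomes 16 and 20 lie low together, and those of chromosomes 3, 9 and 10 lie high together.

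Some shifts covered a whole chromosome and others a stretch of one. Among 293 windows of 10 Mb, 29 had a median of -0.3 or lower and 24 a median of 0.3 or higher, and none of the same windows passed either bound with shTIP60-C. The SD of window medians was 0.21 with shTIP60-B and 0.09 with shTIP60-C. The lowest window was on chromosome 20 at 10 to 20 Mb, with a median of -0.67 from 5809 against 12078 reads. It was followed by chromosome 1 at 150 to 160 Mb (-0.61) and chromosome 20 at 50 to 60 Mb (-0.60). The 3 highest windows were on chromosome 3 at 20 to 30 Mb (0.55) and 180 to 190 Mb (0.53) and on chromosome 10 at 40 to 50 Mb (0.51). Neighbouring windows went the same way over the whole of chromosome 20, over 140 to 190 Mb of chromosome 1 (-0.52), over 170 to 200 Mb of chromosome 3 (0.45) and over 40 to 140 Mb of chromosome 10 (0.38). Of the 53 shifted windows, 50 held at least 10 promoter and 10 distal peaks, and in all 50 both kinds had a median on the same side of 0. Window medians held 10.8% of the variance of the genome-centred ratio, so most of the spread lay within windows.

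**Figure D2:**
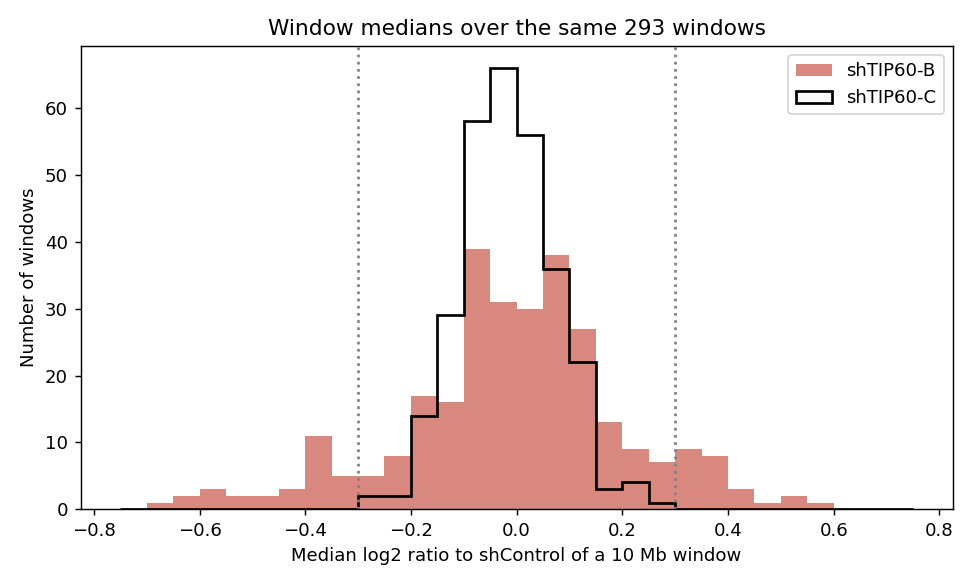
Number of 10 Mb windows by the median genome-centred log2 ratio of their members, for shTIP60-B (filled) and shTIP60-C (outline) over the same 293 windows, with dotted lines at -0.3 and 0.3. The shTIP60-B medians reach from -0.67 to 0.55 and those of shTIP60-C from -0.25 to 0.25.

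Genes with deep promoter peaks show what the window step removes. PTPN14, a phosphatase gene that restrains YAP, had 232 reads with shTIP60-B and 648 with the control, and went from -1.10 to -0.93. PMVK, an enzyme of the mevalonate pathway, had 189 and 516 reads and went from -1.07 to -0.46. HIST2H3A and HIST2H3C, near-identical histone H3 genes whose reads may be split between copies, went from -1.38 to -0.87 and from -1.12 to -0.61. These promoters lay on chromosome 1, and the last 3 in stretches whose window medians were -0.61 and -0.51. On chromosome 20, ABALON had 300 and 917 reads and went from -1.23 to -0.68, and LOC105372653 had 211 and 660 reads and went from -1.26 to -0.85; both peaks overlap other genes. In the other direction ECT2, an exchange factor of cytokinesis, had 861 and 515 reads and went from 1.12 to 0.73. EIF4A2, a translation initiation helicase, had 689 and 439 reads and went from 1.03 to 0.50, and ALG3, a mannosyltransferase of N-glycan synthesis, 555 and 359 reads and from 1.00 to 0.48. PPRC1, a coactivator of mitochondrial biogenesis, went from 1.09 to 0.71 with 870 and 529 reads. CDC42EP1, an effector of CDC42, had 712 and 447 reads and went from 1.05 to 0.87, and LINC02026 390 and 237 reads and from 1.09 to 0.69. These 12 were picked because they lost the call, so their falling short of 2-fold relative to their surroundings was fixed by that choice. PTPN14 and CDC42EP1, whose window medians were -0.17 and 0.18, moved little and only fell below the bound.

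The 12 lowest promoters after window centring included IRF9 and IFI27 of the interferon list, described further below, and SRF of the immediate early list. They are ranked by the interval bound nearest 0, and shallow peaks such as LOC105371335 still lead that order. CNN2, which encodes the actin-binding protein calponin 2 (chromosome 19, 1025916 to 1027533, hg19), had 71 reads with shTIP60-B and 414 with the control. It was 4.01-fold lower on the window-centred scale, with a log2 interval of -2.40 to -1.65, and at the same peak shTIP60-C had 629 reads and a genome-centred ratio of -0.23. SRF, the serum response factor gene (chromosome 6, 43138925 to 43140275), had 54 and 237 reads and a ratio of -1.68 (-2.16 to -1.27). CRIP2, a LIM domain protein gene, had 28 and 113 reads (-1.78), CSNK1G2, a casein kinase gene, 26 and 142 (-1.88), and SLU7, a splicing factor gene, 26 and 110 (-1.81). These 5 promoters had at least 100 control reads each, and with shTIP60-C their genome-centred ratios lay between -0.43 and 0.21. The other named low promoters outside the interferon group rested on few reads: LOC105371335 had 1 and 37, LOC100506023 1 and 30, IRX5 2 and 35, C18orf32 2 and 28, and NBPF12 4 and 47. These 5 peaks and that of SLU7 were control-only. NBPF12 belongs to a family of near-identical copies, and the treatment of reads with several possible positions is not stated in the labels or headers.

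The highest promoters were led by TOR4A and UCHL1. TOR4A, a torsin ATPase gene (chromosome 9, 140171296 to 140172226, hg19), had 262 reads with shTIP60-B and 87 with the control. Its window-centred ratio was 1.72 (1.38 to 2.10), and shTIP60-C had 234 reads there (genome-centred 0.58). UCHL1, a ubiquitin hydrolase best known from neurons (chromosome 4, 41258927 to 41260057), had 204 and 82 reads and a ratio of 1.74 (1.37 to 2.13). FZD9, a WNT receptor gene, had 225 and 129 reads and stood at 1.44. ATP5A1, the alpha subunit of ATP synthase, had 106 and 55 reads (2.83-fold). SLC23A2, a vitamin C transporter gene on chromosome 20, had 70 and 36 reads and went from 1.32 to 1.90 with window centring, against the direction of its chromosome. The other named high promoters were SBK3 (97 and 35 reads), LRRC8B, a subunit of volume-regulated anion channels (181 and 94), TMEM177 (51 and 16), KLHL21, an adaptor of a ubiquitin ligase in mitosis (183 and 94), KIAA0922 (73 and 30) and STK32C (110 and 38), with window-centred ratios from 1.41 to 1.93. All 12 had an shTIP60-B peak at the promoter. With shTIP60-C their genome-centred ratios ran from 0.07 at FZD9 to 1.499 at NUPR1, with STK32C at 1.17, KIAA0922 at 1.08, SBK3 at 1.05 and LRRC8B at 0.99.

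**Figure D3:**
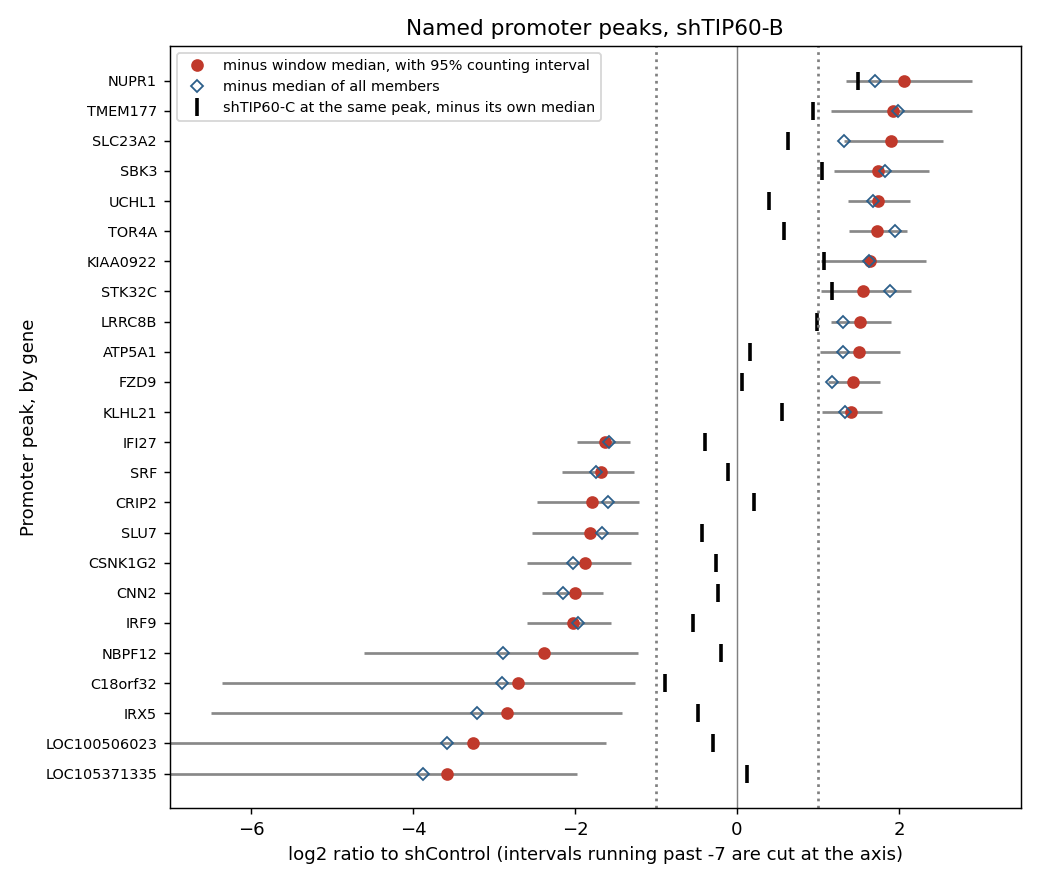
Log2 ratio to shControl of the 24 named promoter peaks past the rule: window-centred with its 95% counting interval (circles), genome-centred (diamonds), and shTIP60-C at the same peak (black ticks). The low promoters lie at -1.63 or below and the high ones at 1.41 or above; intervals that run past -7 are cut at the axis.

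The surroundings of called promoters were compared with those of all genes. Between 2 and 100 kb from the peaks of the 308 lower genes, 7.21% of neighbouring members were lower too, against 5.24% around all genes. Around the 177 higher genes, 3.49% of neighbours were higher, against 3.29% around all genes. Where a lower gene had further promoter peaks, 8 of 42 were also lower, and for higher genes 3 of 35 were also higher. Of all promoter peaks 3.20% and 1.90% were, but further peaks are by choice the shallower ones of a gene. Of promoter peaks in the shallowest of 5 depth groups 9.69% were lower and 1.69% higher, and in the next group 5.98% and 5.40%. On the same side of 0 as the called peak were 25 of the 42 and 21 of the 35. The same-side share over further peaks of all genes was not computed.

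Interferon-stimulated genes were the gene list with the lowest median. Of 38 genes measured, 7 were lower, 1 was higher and 32 lay below 0 on the window-centred scale, with a median of -0.59 against -0.01 over all genes. Over all genes 2.93% were lower and 1.68% higher. IRF9, the DNA-binding subunit of the complex that type I interferon activates (chromosome 14, 24629588 to 24631608, hg19), had 39 reads with shTIP60-B and 202 with the control, a ratio of -2.02 (-2.59 to -1.55). IRF7, which amplifies interferon transcription, had 35 and 123 reads (-1.70). IFI27 had 99 and 386 reads (-1.63), HERC6 50 and 189 (-1.58), IFI44L 27 and 92 (-1.49), SAMD9 39 and 152 (2.29-fold lower) and the antiviral GTPase gene MX2 12 and 63 (-1.91). The promoters of IFI27, IFI44L and SAMD9 are those printed above with the interferon pattern. STAT2, the partner of IRF9, had 64 and 188 reads and a ratio of -0.95 (-1.40 to -0.55), short of the 2-fold bound. SAMD9L, which lies beside SAMD9 on chromosome 7, was the higher gene, with 41 and 33 reads and a ratio of 1.04 (0.35 to 1.76). On the genome-centred scale no gene of the list, SAMD9L included, was higher, and 9 were lower. USP18, a brake on the same pathway, had 175 and 171 reads (0.32), and IFIT2 98 and 87 (0.24). MX2, IRF7, IFI44L and SAMD9 rested on control-only peaks, which lean low by construction, while IRF9, IFI27 and HERC6 also had an shTIP60-B peak. The list's median on the genome-centred scale was -0.55 with shTIP60-B and -0.12 with shTIP60-C. Both comparisons share the control library.

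Immediate early genes, which growth factors and serum switch on within minutes, mostly lay below 0. Of 30 measured, 7 were lower, none was higher, where 2.93% and 1.68% of all genes were, and 21 lay below 0. The median was -0.30, and -0.14 over genes with at least 100 reads. Besides SRF, the lower ones were FOSB (7 and 36 reads, -1.79), EGR3 (6 and 29, -1.64), SGK1 (17 and 63, -1.31), EGR4 (80 and 214, -1.09), JUND (21 and 58, -1.07) and NR4A3 (19 and 48, -1.05). FOSB, EGR3, SGK1, JUND and NR4A3 rested on control-only peaks. Among members with more reads, FOS had 297 and 573 reads and a ratio of -0.69 (-0.90 to -0.49), EGR1 had 337 and 526 (-0.28), and FOSL1 had 568 and 581 (0.10). The phosphatase gene DUSP2, with 248 and 185 reads, was at 0.69. With shTIP60-C the list's median was 0.04 on the genome-centred scale, where it was -0.36 with shTIP60-B. In the related list of EGFR and ERK signalling, the pathway that drives this EGFR-mutant line, 1 of 31 genes was called. That is close to the 2.93% of all genes that were lower. The gene was ERBB2, the partner receptor of EGFR, with 25 and 89 reads and a ratio of -1.47 (-2.22 to -0.86). The median of that list was 0.12.

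Targets of ATF4, the transcription factor of the amino acid and stress response, had the highest median of the lists. Of 21 genes with a window value, 5 were higher, none was lower and 19 lay above 0, with a median of 0.55; over all genes 1.68% were higher and 2.93% lower. NUPR1, a stress-induced chromatin protein, had 54 reads with shTIP60-B and 21 with the control, a ratio of 2.06 (1.35 to 2.90). The serine synthesis genes PHGDH (50 and 32 reads) and PSAT1 (295 and 169) stood at 1.13 and 1.09. CHAC1, a glutathione-degrading enzyme whose promoter is printed above, had 182 and 104 reads (1.12), and DDIT4, an inhibitor of mTORC1, had 180 and 85 (1.06). All 5 had more reads with shTIP60-B than with the control, as a 2-fold call at these promoters requires, so this adds nothing to the calls. ASNS, asparagine synthetase, had 117 and 112 reads (0.80), and ATF4 itself 476 and 518 (0.08). DDIT3 had 309 and 482 reads and a ratio of -0.05. The list's median on the genome-centred scale was 0.48 with shTIP60-B and 0.44 with shTIP60-C. With shTIP60-C NUPR1 and DDIT4 stood at 1.499 and 1.121 on that scale. The unfolded protein response, a neighbouring stress pathway, had a median of -0.24 with 1 of 22 genes called, CREB3L2 (25 and 86 reads, -1.06).

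**Figure D4:**
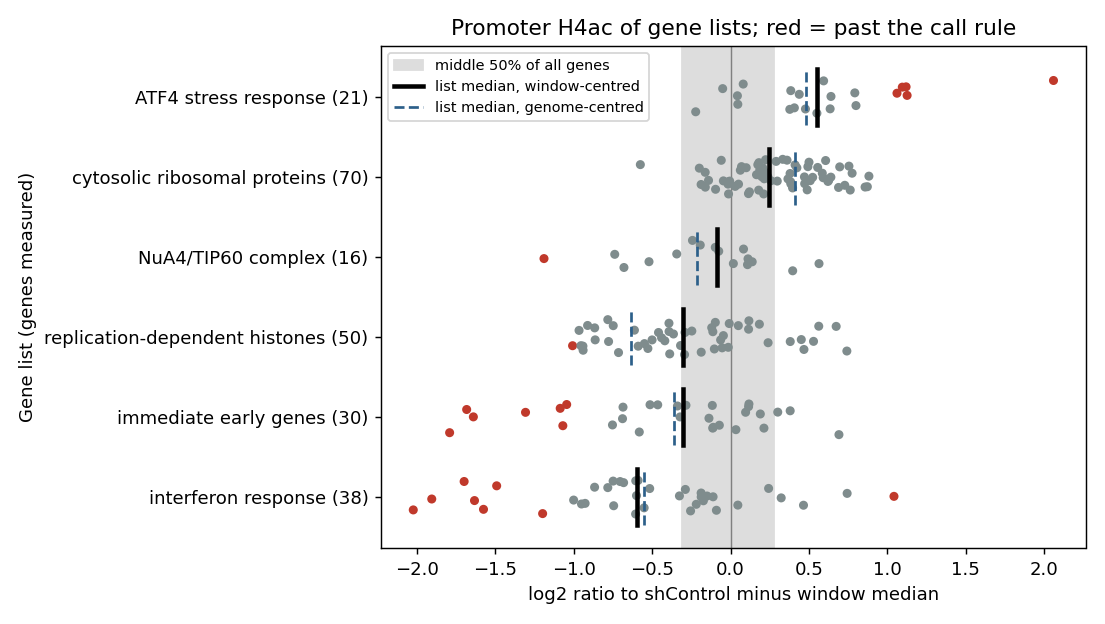
Window-centred log2 ratio of promoter peaks in 6 gene lists, 1 point a gene, with red points past the rule; solid bars are list medians, dashed bars the medians on the genome-centred scale, and the grey band the middle 50% of all genes. The interferon and ATF4 lists lie at opposite ends, at -0.59 and 0.55, and the histone median moves from -0.64 to -0.31 with window centring.

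Lists of protein synthesis genes had medians above 0 over the control peaks. Of 70 cytosolic ribosomal protein genes, 57 lay above 0, none was called, and the median was 0.25 after window centring and 0.41 before. RPL36 had 218 and 170 reads and the highest ratio, 0.88 (0.59 to 1.18), and RPS21 had 64 and 176 and the lowest, -0.58; it lies on chromosome 20. Ribosome biogenesis factors had a median of 0.24 and proteasome subunits 0.20, with no call in 33 genes each; over shTIP60-B peaks in place of control peaks these medians were -0.013 and -0.021, and the lowest median of the cytosolic ribosomal list under any alternative was 0.05. Mitochondrial ribosomal proteins had a median of 0.17, with 1 of 61 genes lower, MRPL28 (5 and 28 reads). Over all genes 4.44% were lower on the genome-centred scale, and 2.93% were lower and 1.68% higher after window centring. Replication-dependent histone genes had a median of -0.64 and 13 lower genes of 50 on the genome-centred scale. These became -0.31 and 1 gene after window centring. That gene was HIST2H2AB, with 73 and 274 reads and a ratio of -1.01 (-1.41 to -0.64). These genes lie on 3 chromosomes, mostly in clusters, and are multi-copy, so their reads may be divided between copies.

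At the KAT5 promoter (chromosome 11, 65478278 to 65480264, hg19), shTIP60-B had 348 reads and the control 401. The ratio was 0.17 (-0.04 to 0.38) genome-centred and -0.08 (-0.29 to 0.13) window-centred. Over all genes 2.93% were lower after window centring, the share to set beside each list in this paragraph. Of the 16 NuA4 subunit genes with a window value, 1 was lower. It was EP400, the nucleosome remodelling subunit, with 13 and 41 reads and a ratio of -1.19 (-2.29 to -0.33). ACTB, the actin shared with other complexes, had 822 and 1544 reads (-0.74), TRRAP, the scaffold, 95 and 202 (-0.34), and ACTL6A 146 and 98 (0.56). The subunit median was -0.09. Among 13 other lysine acetyltransferase genes, NAA40, which acetylates the N-terminal end of histones H4 and H2A, was lower with 12 and 52 reads (-1.90). KAT7, another H4 acetyltransferase, had 96 and 200 reads (-0.71) and CREBBP 154 and 205 (0.44). Of 19 genes of acetyl-lysine readers and pause release, LARP7, a component of the 7SK particle that holds back the elongation kinase, was lower with 43 and 130 reads, an interval of -1.75 to -0.71. CDK9, that kinase, had 75 and 139 reads (-0.71).

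Single members of other lists were called, where 2.93% of all genes were lower and 1.68% higher after window centring. MVD, an enzyme of cholesterol synthesis, had 7 and 46 reads (-1.94), and the list's median was -0.19 over 19 genes. CDC20, an activator of the anaphase-promoting complex, had 12 and 38 reads (-1.14), the transcription factor gene TEAD2 27 and 80 (-1.11) and ID3, an inhibitor of bHLH factors, 18 and 51 (-1.01). The basal cell factor gene TP63 had 10 and 25 reads (-1.39), and the homeobox gene HOXC8 7 and 27 (-1.22). CDH1, which encodes E-cadherin, was higher with 33 and 25 reads (1.08), and LAMP3 with 116 and 50 (1.05). On the genome-centred scale CDH1 and TP63 were not called. These are single genes of lists that did not share their direction. The HOX and Iroquois list had a window-centred median of 0.25, with 6 of 10 genes above 0. The epithelial junction and keratin list had a median of -0.10, with 13 of 23 below 0, and the lung lineage list -0.004 over 5 genes. The lists of glycolysis, NF-kB, hypoxia, NRF2, p53, double-strand break repair, DNA replication, splicing and fatty acid synthesis had no call after window centring. For the cell line's label, 5 of 6 epithelial markers had a control peak at the promoter (25 to 282 control reads; KRT7 had none). Of 5 lung lineage markers only NKX2-1 had one, with 19 control reads and 7 with shTIP60-B, below the minimum for members. Of short lists of defining markers, none of 5 endothelial, 1 of 6 immune (CSF1R) and 1 of 5 fibroblast markers (COL1A1) had a peak. In longer lists 1 of 12 endothelial, 3 of 17 immune and 2 of 11 fibroblast markers had a promoter member.

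The Iroquois locus on chromosome 16 was low at most of its peaks. Here and in the next paragraph the regions were singled out after their values had been seen, as 1 Mb bins with at least 5 called members that made up at least 50% of the bin. In the bin at 54 to 55 Mb, 7 of 8 members were lower after window centring, with 91 reads against 455 in all, and 7 of the 8 were control-only peaks. IRX3, a homeobox gene, had 11 and 68 reads (-1.78). CRNDE, a long noncoding RNA transcribed away from IRX5, had 24 and 134 reads (-1.69), and the 3 peaks at or behind the IRX5 start had 2 and 35, 9 and 46, and 9 and 36. With shTIP60-C the 8 members had 755 reads and a median genome-centred ratio of -0.12. At 78 to 79 Mb of chromosome 9, near PCSK5, a proprotein convertase gene, 6 of 6 members were lower, with 74 against 293 reads. On the genome-centred scale 5 of these were lower, 5 were control-only, and the shTIP60-C median was -0.16. At 132 to 133 Mb of chromosome 10 the count was 6 of 9, with 196 against 450 reads. There only 2 of the 9 were lower on the genome-centred scale, and 8 were control-only. With shTIP60-C the median genome-centred ratio of the 9 was -0.54.
At 49 to 50 Mb of chromosome 15, 6 of 9 members were higher, with 953 against 604 reads over the bin. They lay at SECISBP2L (52 and 28 reads), COPS2, a subunit of the COP9 signalosome (217 and 124), GALK2, a galactokinase gene (246 and 135), and at 3 peaks of DTWD1, of which the promoter had 118 and 58. CEP152, a centriole duplication gene, had 197 and 133 reads and stood at 0.88, short of 2-fold. In the same bin a distal peak of CEP152 was lower, with 6 and 26 reads (-1.63), and one nearest to FBN1 had 33 and 57 reads (-0.45).

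Among distal peaks the 5 lowest by interval bound all lay in one satellite array near the centromere of chromosome X. The first of them (chromosome X, 58235760 to 58244231, hg19) is annotated as HSAT4, a family of tandem repeats, and had 28 reads with shTIP60-B and 1378 with the control, a window-centred ratio of -5.04 (-5.68 to -4.55). The others had 30 and 1441, 18 and 957, 24 and 1052, and 21 and 733 reads. With shTIP60-C the same 5 peaks had 1361 to 2567 reads and genome-centred ratios from -0.06 to 0.14. HSAT4 was low on every chromosome where it was a member. Its 18 regions on chromosome X had 213 reads in all against 7266, the 10 on chromosome 19 had 113 against 1041, and the 6 on chromosome 1 had 672 against 4049. These sums give genome-centred ratios of -4.71 (-4.92 to -4.52), -2.82 (-3.12 to -2.55) and -2.21 (-2.33 to -2.10). Of the 34 regions, 33 were lower after window centring and 32 were control-only peaks. With shTIP60-C the 34 regions had 23143 reads, against 12356 in the control, a genome-centred ratio of the sums of 0.07.

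Other satellite families were described in the same way. The 57 members of other families had 101310 reads with shTIP60-B and 67397 with the control, a genome-centred ratio of the sums of 0.97 (0.95 to 0.98). The median over the 57 was 0.46. Alpha satellite had 83004 and 55179 reads over 8 regions, and HSATII 12546 and 7157 over 2. These 8 and 2 regions were all listed as control-only peaks. With shTIP60-C the genome-centred ratio of the sums was also above 0, at 0.61 over the 57, 0.63 for alpha satellite and 0.63 for HSATII. The pooled ratio was 0.20 for BSR/Beta and for MSR1, and -0.53 over the 2 REP522 regions. Of the 57, 12 were higher and 2 lower on the genome-centred scale, where 3.96% and 7.33% of all members were. Both lower ones lay in the same stretch of chromosome X: an alpha satellite peak with 4 and 37 reads and a GSATX peak with 0 and 39. In that 1 Mb bin all 23 members were lower, HSAT4 or not, with 225 reads against 7441. SVA elements, a young composite retrotransposon family, were the lowest of the repeat families with at least 50 distal members: 251 regions had 7640 and 11985 reads, and 46 were lower and 5 higher on the genome-centred scale, where 7.33% and 3.96% of all members were. Their median was -0.37 with shTIP60-B and -0.41 with shTIP60-C, and 161 of the 251 were control-only peaks. Of all control-only members 22.1% were lower on that scale. Reads from repeats can map to several places, so these values describe families and arrays better than single positions.

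**Figure D5:**
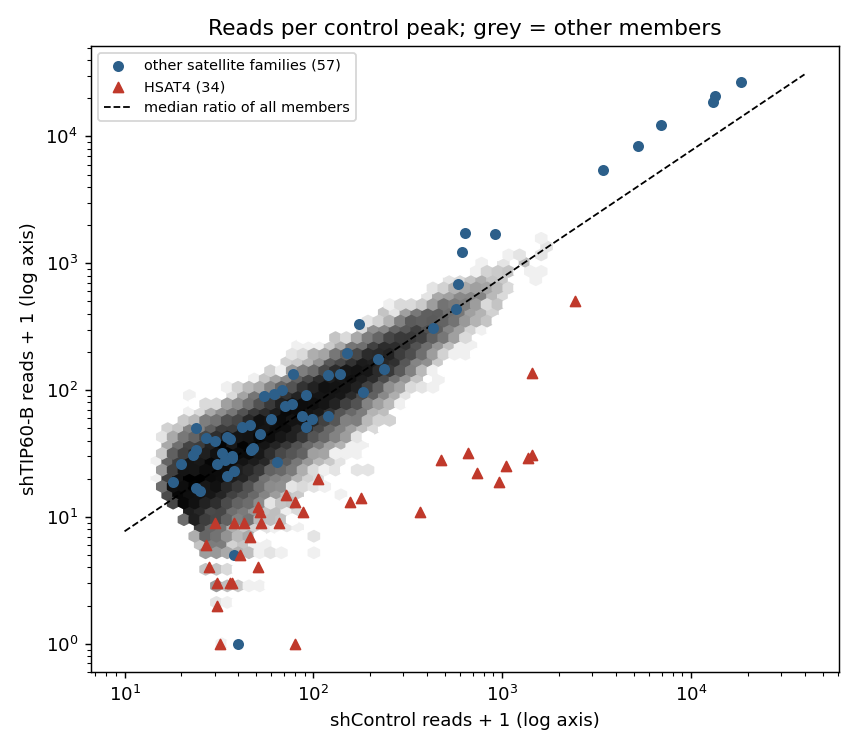
Reads with shTIP60-B against reads with shControl for every member, both plus 1 on log axes; triangles are HSAT4 regions, circles other satellite families, grey hexagons all other members, and the dashed line the median ratio. All 34 HSAT4 regions lie below the line, at up to 1441 control reads on chromosome X, while the deepest alpha satellite regions lie above it.

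Of the 5 highest distal peaks by interval bound, 3 lay in introns and 2 between genes. The first, in intron 1 of ERGIC1, a gene of transport between endoplasmic reticulum and Golgi (chromosome 5, 172285204 to 172286834, hg19), had 547 reads with shTIP60-B and 102 with the control. Its window-centred ratio was 2.81 (2.51 to 3.14), whereas shTIP60-C had 135 reads there and a genome-centred ratio of -0.44. A peak in intron 1 of LPAR1, a lysophosphatidic acid receptor gene (chromosome 9, 113739431 to 113739900), had 82 and 18 reads (2.24). One in intron 8 of SUSD1 (chromosome 9, 115011266 to 115012006) had 85 and 20 (2.15), and an intergenic peak whose nearest start, 458534 bp away, is that of ALCAM, a cell adhesion gene (chromosome 3, 104626618 to 104627428), had 131 and 35 (2.03). With shTIP60-C the genome-centred ratios of these 3 were 1.14, 0.75 and -0.51 in the same order. The other was a SAR satellite whose nearest start is that of POTEA on chromosome 8, with 1744 and 634 reads (2.01) and 0.91 with shTIP60-C.

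Spread beyond counting error was present at every depth. From the group of members with fewest reads to the group with most, of 5 such groups, the SD of the window-centred ratio went from 0.72 to 0.44, while the typical counting SD went from 0.47 to 0.14. In the deepest group the SD with shTIP60-B was 0.37 for promoters and 0.52 for distal peaks. With shTIP60-C the SD of that group was 0.26, but its counting SD was not computed, so the libraries are not compared at like depth. How much of the spread lies between cultures of 1 line cannot be told apart from the hairpin with 1 library a side.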

How the data were processed

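H1975 chromatin was crosslinked for 10 min in 1% formaldehyde, immunoprecipitated with an antibody against acetylated H4 and sequenced as 75 bp read pairs, per the labels' protocols. Per the submitters' processing notes, reads were handled with Bowtie2 and MACS 1.4.2 on hg19. The deposited table lists whole-number read counts of both libraries per region, not normalised, per the file headers, and M, the log2 ratio rescaled by the authors. Which of the 2 count columns is which library was read from the comparison named in the header, knockdown first. The promoter was set at 1 kb from the start site in the deposited annotation.

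From the counts, log2((shTIP60-B + 1)/(shControl + 1)) was computed for control peaks of at least 30 reads and centred on its median over members, and again on the median of fixed 10 Mb windows holding at least 20 members; 193 members had no window value. A call needed a 2-fold ratio and an exact Clopper-Pearson interval at 95% on one side of 0. With 1 library a side there was no test. Medians of 45 and 57 reads per peak limit the precision. The 3 input libraries were not analysed here.

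The 35 gene lists hold 1156 entries, of which 844 had a promoter member. The members and lists were chosen with earlier results of these data known. Named promoters are the 12 lowest and 12 highest called, by the interval bound nearest 0, passing over small and antisense RNAs; 5 distal peaks per direction, 6 genes per direction called only before window centring, called list members and up to 4 others per list, and KAT5 are also named. Promoter sequences were matched by gene ID or name for 8411 of 10518 genes. The functions were checked on simulated counts. Python 3.11.15, numpy 2.4.6, pandas 2.3.3 and scipy 1.17.1 were used. Alternatives covered the pseudocount, read minimum, fold, interval, windows, centring, the authors' M, peak list and promoter definition.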

Additional observations from a re-analysis of the deposited data

How the results depend on the processing

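No paired analysis was possible because each group holds 1 library, and for the same reason no replicate could be left out. The peak list decides which direction is commoner. Over shTIP60-B peaks in place of control peaks, 1170 peaks were lower and 2204 higher on the genome-centred scale, and 774 and 2011 after window centring. Over control peaks shared with shTIP60-B, these counts were 803 and 773, then 551 and 650, with 189 genes lower and 104 higher. A minimum of 50 reads gave 1617 and 1259 lower peaks before and after window centring. A minimum of 100 reads gave 756 lower and 482 higher peaks, 481 and 367 after window centring, and 129 and 72 genes. At 1.5-fold, 4463 peaks were lower and 3916 higher, 3777 and 3474 after window centring, with 979 and 828 genes. At 3-fold these were 722 and 107, 621 and 80, with 61 and 11 genes. A stricter counting interval left 1424 lower peaks, 1050 after window centring, and 181 lower genes. For each of these the cause was not tested beyond the change of rule or peak list itself. The chromosome 20 median was -0.60 both at 100 reads and over shTIP60-B peaks, and lay between -0.60 and -0.55 in all alternatives run. The share of windows beyond 0.3 was 18.1%, and 12.6% without chromosomes 16 and 20. Over shTIP60-B peaks the medians of the proteasome, NRF2 and ribosome biogenesis lists turned to -0.021, -0.031 and -0.013. The interferon median stayed between -0.61 and -0.43 and the ATF4 median between 0.27 and 0.69. Leaving out satellite peaks, or centring promoters and distal peaks separately, both chosen after seeing the data, changed no count by over 1.5 times. None of the 24 named promoters past the rule changed sign where it could be measured, but 24 values over 18 of the named genes, and 14 over 11 list medians, moved out of their intervals. The interval condition removed few calls: without it, 2083 peaks were lower and 1090 higher after window centring, against 2014 and 1090 with it. Calls still varied with depth. In the shallowest of 5 depth groups 12.97% of peaks were lower and 1.36% higher after window centring. The next group had 7.72% and 6.22%, and the deepest 1.34% and 0.965%.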
